A study of Homo sapiens with 12 samples.

Results

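The genes described here are 6 chemokines that draw lymphocytes into tissue, CXCL9, CXCL10, CXCL11, CCL5, CXCL16 and CX3CL1, out of 60099 genes measured in cells treated with interferon alpha (IFNα). They were taken by symbol. The family was chosen by its measured response to dose in each line set, above all by the higher level of CXCL10 at the high than at the low dose. The cells were Cal27 and HN30, established lines of human head and neck squamous cell carcinoma (HNSCC), untreated or exposed to 20 or 200 ng/ml IFNα for 24 h. RNA depleted of ribosomal RNA was sequenced as libraries that keep the strand. There were 12 samples, 2 for each of 6 letters. No IFNα was added to A and D, the controls, while 20 ng/ml was given to B and E and 200 ng/ml to C and F. The first 3 letters and the last 3 each cover all doses, and each such run of letters was taken to be 1 line. Since the labels do not tell which run is Cal27 and which is HN30, the names A-C and D-F are used for the line sets. Each set is 1 established tumour line grown without immune cells, and nothing in the labels says that samples 1 and 2 came from separate cultures, so the p-values measure the spread between these samples alone.

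Chemokines are small secreted proteins that guide leukocytes along a gradient. CXCL9, CXCL10 and CXCL11 are the ligands of CXCR3, the receptor of activated T and NK cells, and all are known as interferon-inducible genes whose promoters can bind STAT and IRF factors and NF-κB. The receptors of CCL5 include CCR1 and CCR3. CXCL16, the ligand of CXCR6, and CX3CL1 (fractalkine), the ligand of CX3CR1, differ from the others in that they are made as transmembrane proteins on a mucin stalk, from which the proteases ADAM10 and ADAM17 release the soluble chemokine.

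In the coordinates of the files (GRCh38), the CXCR3 ligands lay side by side on the minus strand of chromosome 4 within 40141 bases. CXCL9 (ENSG00000138755) was at chr4:76001275-76007488, CXCL10 (ENSG00000169245) at chr4:76021117-76023497 and CXCL11 (ENSG00000169248) at chr4:76033682-76041415. CCL5 (ENSG00000271503) was on the minus strand at chr17:35871491-35880793 and CXCL16 (ENSG00000161921) on the same strand at chr17:4733526-4739922. CX3CL1 (ENSG00000006210) was on the plus strand at chr16:57372458-57385048. The sequence just upstream of the start of each CXCR3 ligand is printed here. Averaged over the line sets, CXCL10 and CXCL11 had the largest fold changes against control of the chemokines tested. Promoters of 3 of the 6 genes were matched, all from RefSeq on GRCh38.p14 and read 5′ to 3′ on the gene's strand. The window was the 250 bases before the RefSeq start, and 127 bases of the CXCL11 window that lie inside its transcript CXCL11-201 were left out, so that 123 are printed. Capitals mark matches, searched on both strands, to GAAANNGAAA (an interferon-stimulated response element, ISRE), to TTCNNNGAA (a gamma-activated site, GAS) and to the NF-κB consensus.
CXCL9 (chr4:76007510-76007759, minus strand): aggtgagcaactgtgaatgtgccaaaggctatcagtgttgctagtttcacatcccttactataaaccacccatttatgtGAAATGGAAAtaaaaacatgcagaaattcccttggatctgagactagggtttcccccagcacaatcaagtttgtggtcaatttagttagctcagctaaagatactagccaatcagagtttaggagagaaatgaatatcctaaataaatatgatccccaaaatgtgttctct
CXCL10 (chr4:76023498-76023747, minus strand): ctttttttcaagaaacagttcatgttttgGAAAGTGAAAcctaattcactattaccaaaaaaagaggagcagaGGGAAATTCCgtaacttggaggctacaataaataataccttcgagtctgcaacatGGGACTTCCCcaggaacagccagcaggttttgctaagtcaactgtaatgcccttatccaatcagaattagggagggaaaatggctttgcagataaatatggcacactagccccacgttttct
CXCL11 (chr4:76036198-76036320, minus strand): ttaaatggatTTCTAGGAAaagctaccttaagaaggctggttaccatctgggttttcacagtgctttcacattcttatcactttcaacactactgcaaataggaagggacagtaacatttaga

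The CXCL10 window held 1 ISRE match, GAAAGTGAAA, 221 to 212 bases before the start. It also held 2 matches to the NF-κB consensus, GGGAAATTCC at 177 to 168 bases and GGGACTTCCC at 122 to 113 bases. In CXCL9 the ISRE match was GAAATGGAAA, 171 to 162 bases before the start. The CXCL11 window had no ISRE match but a GAS match, TTCTAGGAA, at 240 to 232 bases, and an NF-κB match, GGGAAATTCC, at 76 to 67 bases, inside the part left out of the print. The NF-κB letters nearest the start of CXCL11 were thus the same as those of the farther match in CXCL10, and no matches overlapped one another. Of 35116 promoter windows of this length, 3.02% held the ISRE letters, 6.57% the GAS letters and 5.21% the NF-κB consensus. These are matches of letters and no binding was measured.

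The libraries held between 10517448 and 16056734 estimated counts, and every control was deeper than every sample at 200 ng/ml. Over 13034 genes, samples correlated at 0.944 to 0.979 within a line set and at 0.722 to 0.758 between sets. The doses were checked with 12 interferon-stimulated genes, of which all 12 rose at both doses. Squamous epithelial markers were present as labelled, with summed levels of 2751 to 3371 TPM (a level scaled for transcript length and for sequencing depth) in A-C and 1204 to 1509 TPM in D-F, all 9 markers being above 1 TPM in A-C and 8 of 9 in D-F, where KRT14 was the exception. The 9 lymphocyte markers summed to at most 0.638 TPM in any sample, and 4 of them were at 0 in every sample. The 8 markers of monocytes, macrophages and dendritic cells summed to 8.62 to 17.6 TPM in controls and to 21.9 to 43.7 TPM at 200 ng/ml, with CD68 at 5.29 to 39.6 TPM over all samples, while PTPRC did not exceed 0.0425 TPM, CD163 0.0521 TPM or LYZ 0.202 TPM. Of the others, CSF1R was at 1.48 to 5.50 TPM, while CD14, FCER1G and ITGAX ran from 0 to 2.29, 2.16 and 1.26 TPM. The 5 endothelial markers summed to 15.3 to 21.7 TPM in A-C and to at most 0.796 TPM in D-F. Only CDH5 among them exceeded 1 TPM. Of 6 fibroblast markers 4 stayed under 1 TPM, with COL1A1 at 3.43 to 13.0 TPM and COL1A2 at most at 1.73 TPM. The part of CD68, of the other markers and of depth in the results was not tested.

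CXCL10 rose with IFNα in both line sets and reached the highest level of the CXCR3 ligands. In A-C it was at 1.36 and 1.93 TPM in controls, 5.92 and 6.38 TPM at 20 ng/ml, and 19.1 and 19.4 TPM at 200 ng/ml. In D-F it was at 0.122 and 0 TPM in controls, 3.76 and 4.58 TPM at 20 ng/ml, and 13.8 and 12.6 TPM at 200 ng/ml. No treated sample overlapped a control of its set, and no sample at 200 ng/ml overlapped one at 20 ng/ml. CXCL10 was chosen for being higher at the high than at the low dose, so this separation of the doses only restates that choice. The share of all genes without overlap was not counted. Behind these levels were few reads, 13 and 23 estimated counts in A, 2 and 0 in D and at most 163 in any sample.

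**Figure D1:**
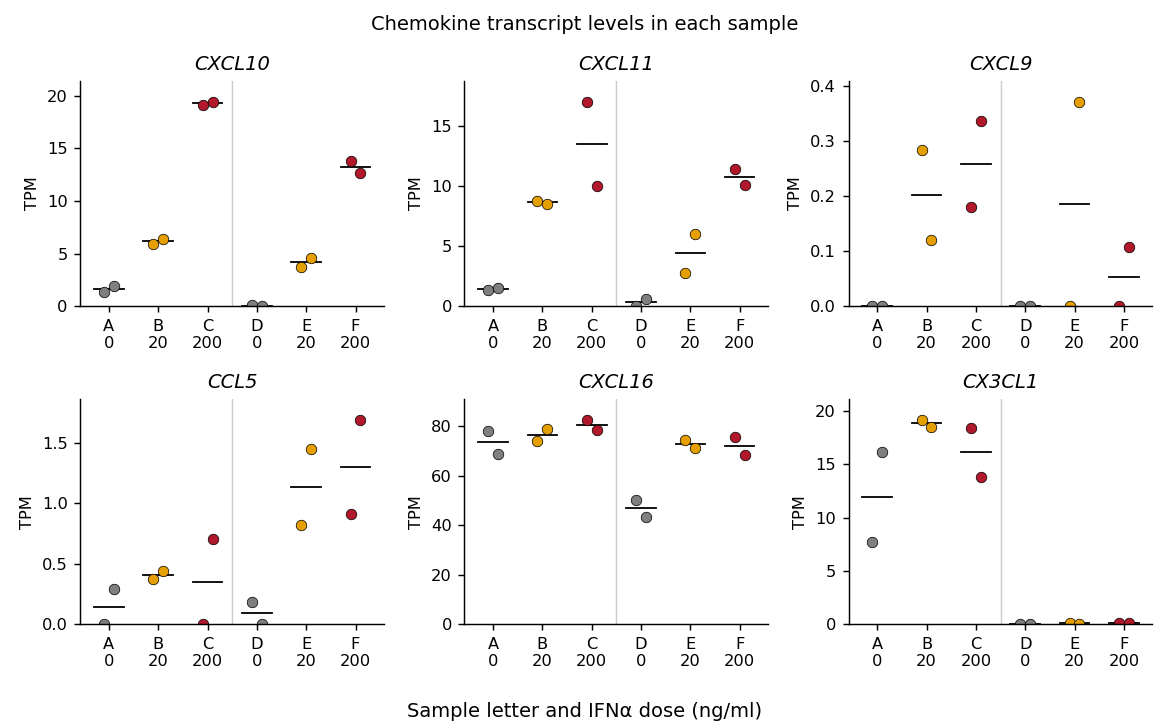
Level of each chemokine in every sample (points, TPM on a linear axis from 0) by sample letter and IFNα dose in ng/ml, with the mean of the 2 samples of a letter as a line; the grey vertical line separates A-C from D-F, and each panel has its own scale. CXCL10, chosen for its step from the low to the high dose, stepped up at each dose in both sets. CXCL16 was between 43.4 and 82.6 TPM throughout, and CX3CL1 was at most 0.160 TPM in D-F.

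Averaged over the line sets, CXCL10 was 36.0-fold above control at 200 ng/ml (5.17 on the log2 scale, SE 0.31, adjusted p = 6.57e-06, edgeR's quasi-likelihood test with Benjamini-Hochberg adjustment over 19944 genes). At 20 ng/ml it was 11.5-fold above control (log2 fold change 3.53, SE 0.33, edgeR adjusted p = 0.000243). The size of both averages rests on the D controls, with log2 fold changes of 6.63 without D1 and 4.71 without D2 at 200 ng/ml, and 5.00 and 3.06 at 20 ng/ml, all still called. Of the 6 chemokines 2 were called higher at 200 ng/ml, meaning a fold change of 2 or more and an adjusted p no higher than 0.05, against 1.58% of all genes tested. The same 2, CXCL10 and CXCL11, were called higher at 20 ng/ml, against 0.963% of all genes. These comparisons share the control samples. The samples at both doses also entered the choice of CXCL10 and of the family. The calls of CXCL10 and CXCL11 and these counts are therefore not independent of that choice. In bulk RNA, more responding cells and more RNA per cell cannot be told apart.

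CXCL11, the CXCR3 ligand with the highest affinity for the receptor, followed CXCL10 at a similar level. Its values in A-C were 1.36 and 1.53 TPM in controls, 8.79 and 8.53 TPM at 20 ng/ml, and 17.1 and 10.05 TPM at 200 ng/ml. In D-F they were 0 and 0.627 TPM, 2.80 and 6.04 TPM, and 11.5 and 10.1 TPM. Again no dose overlapped the one below it within a set, although the samples of a letter were far apart in C and in E. The response to dose entered the choice of the family, so this too is a description. CXCL11 was 21.3-fold above control at 200 ng/ml (log2 change 4.41, SE 0.42, edgeR adjusted p = 0.000170) and 10.9-fold above it at 20 ng/ml (log2 change 3.45, SE 0.42, edgeR adjusted p = 0.00150). These sizes too rest on the D controls, the log2 changes being 3.93 without D1 and 6.47 without D2 at 200 ng/ml, and 2.99 and 5.51 at 20 ng/ml.

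Both genes were called within each line set as well. The family was chosen by its response to dose in each set, and the averages above use the same samples. The calls in A-C and in D-F are therefore not independent of that choice or of the averages. In A-C, CXCL10 was 3.58-fold above control at 20 ng/ml (log2 change 1.84, SE 0.35, edgeR adjusted p = 0.0444) and 11.4-fold above it at 200 ng/ml (log2 change 3.51, SE 0.36, edgeR adjusted p = 0.000569). CXCL11 in A-C was 5.88-fold higher at 20 ng/ml (log2 change 2.56, SE 0.50, edgeR adjusted p = 0.0479) and 9.18-fold higher at 200 ng/ml (log2 change 3.20, SE 0.50, edgeR adjusted p = 0.00714). Both calls at 20 ng/ml in A-C lay close to the threshold and were lost when any of the 4 samples compared was left out. The call of CXCL11 at 200 ng/ml in A-C was lost without A2 (edgeR adjusted p = 0.0606). The background in A-C was 0.632% of genes called higher at 20 ng/ml and 1.41% at 200 ng/ml.

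In D-F the controls were almost empty, 2 counts of CXCL10 and 5 of CXCL11 over both samples, and ratios are given with counting intervals that cover counting error only. CXCL10 was 42.6 times its control level at 20 ng/ml (95% interval 11.3 to 358.5) and 130.9 times at 200 ng/ml (35.8 to 1088). CXCL11 was 21.5 times its control level at 20 ng/ml (8.88 to 68.0) and 52.1 times at 200 ng/ml (22.0 to 162.2). The fitted log2 fold changes at 200 ng/ml were 6.83 for CXCL10 (SE 0.52, edgeR adjusted p = 4.48e-05) and 5.63 for CXCL11 (SE 0.66, edgeR adjusted p = 0.000914), against a background of 1.67% called higher. At 20 ng/ml they were 5.21 for CXCL10 (SE 0.56, edgeR adjusted p = 0.000631) and 4.34 for CXCL11 (SE 0.69, edgeR adjusted p = 0.00765), against 1.2%. Without D1 and without D2 in turn, the change at 200 ng/ml was 9.75 and 5.91 for CXCL10 and 4.66 and 9.75 for CXCL11, and at 20 ng/ml it was 8.14 and 4.29 for CXCL10 and 3.39 and 8.47 for CXCL11. The call of CXCL11 at 20 ng/ml was lost at the threshold without E2 (edgeR adjusted p = 0.05002).

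**Figure D2:**
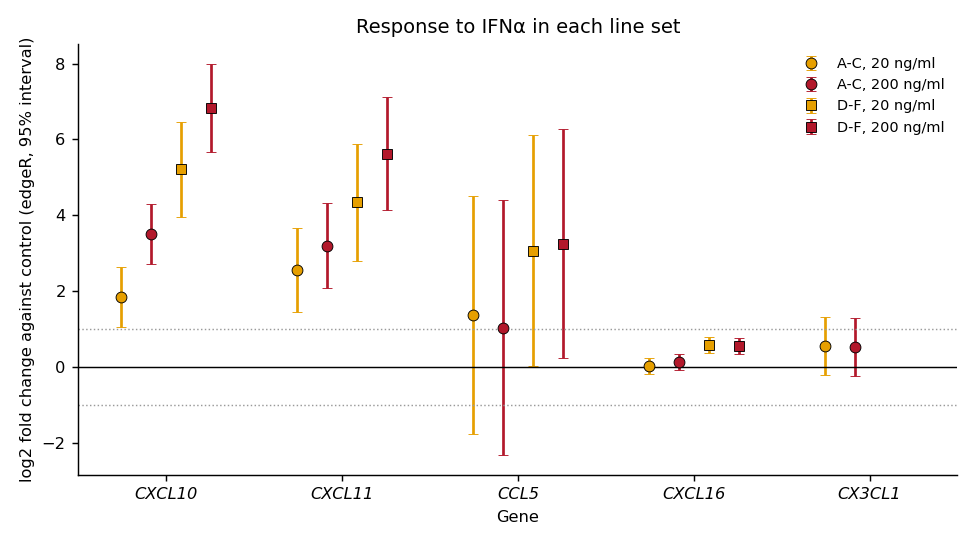
Fitted log2 fold change against the untreated samples of the same line set for the 5 chemokines that passed the filter on low counts, with 95% intervals; circles are A-C, squares D-F, orange 20 ng/ml and red 200 ng/ml, and dotted lines mark 2-fold. CXCL10 and CXCL11 lie above 2-fold in every case, CXCL16 lies near 0 in A-C and at 0.58 and 0.55 in D-F, and CX3CL1 has no D-F points because its D-F controls were at 0.

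The response of CXCL10 at 200 ng/ml differed between the line sets, being larger in D-F than in A-C by 3.33 on the log2 scale (SE 0.70, edgeR adjusted p = 0.0493). It was the 1 chemokine of the 6 called in that comparison, against 0.998% of all genes called in either direction and 0.622% called higher. The samples at 200 ng/ml also entered the choice of CXCL10, so this call is not independent of that choice. At 20 ng/ml the difference had nearly the same size, 3.37 (SE 0.72, edgeR adjusted p = 0.0970), and was not called. Of the 6 chemokines 0 were called there, against 0.231% of all genes (DESeq2 also called 0). An unadjusted edgeR p under 0.05 was found for 3 of the 5 tested, CXCL10, CXCL16 and CX3CL1. Of these, CXCL16 was under 2-fold and CX3CL1 passed the filter only through the A-C samples. For CXCL11 the difference at 200 ng/ml was 2.43 (95% interval 0.46 to 4.39, edgeR adjusted p = 0.189), or 1.46 without D1 and 6.56 without D2. The call for CXCL10 rests on control counts of 2 and 0 in D, and was kept in 1 of the 8 fits that left out 1 of the samples compared, the fit without D1. The difference was 6.24 without D1 and 2.41 without D2. On log2(TPM + 1), tested with limma, the difference was 0.80 and was not called.

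Before treatment, CXCL10 and CXCL11 differed between the line sets. Untreated D was lower than untreated A for CXCL10 by 4.10 on the log2 scale (SE 0.60, edgeR adjusted p = 0.000392) and for CXCL11 by 3.12 (SE 0.74, edgeR adjusted p = 0.00634). The sizes moved with the D controls, to -7.03 without D1 and -3.18 without D2 for CXCL10 and to -2.18 and -7.26 for CXCL11, and both stayed called. Of all genes, 11% were called lower and 26.6% in either direction. CX3CL1 was also called, but it passed the filter on low counts only through the A-C samples, so its call adds no independent support. At 200 ng/ml the mean of CXCL10 was 19.3 ± 0.221 TPM (SD, n = 2) in C and 13.2 ± 0.816 TPM (SD, n = 2) in F. Of the 12 interferon-stimulated genes used to check the doses, 7 were called lower in untreated D, and all 12 had a larger fitted response to 200 ng/ml in D-F than in A-C, 7 of them called.

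The step from 20 to 200 ng/ml, the value that led to the choice of CXCL10, is given as a description with no test. CXCL10 was 3.12-fold higher at 200 than at 20 ng/ml, with 3.17-fold in A-C and 3.08-fold in D-F. CXCL11 was 1.95-fold higher, with 1.56-fold in A-C and 2.43-fold in D-F. Across all genes, 0.0451% were called between these doses in either direction and 0.015% were called higher. At the low dose CXCL10 stood at 31.9% of its high-dose TPM in A-C and at 31.5% in D-F, while CXCL11 stood at 63.9% and 40.9%. The 12 interferon-stimulated genes stood at a median of 71.7% in A-C (57.3% to 119%) and 78.4% in D-F (58.3% to 90.2%), so that CXCL10 lay below all 12 in each set, CXCL11 did so in D-F alone, and RSAD2, an antiviral enzyme, was the closest of the 12 at 57.3% and 58.3%.

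**Figure D3:**
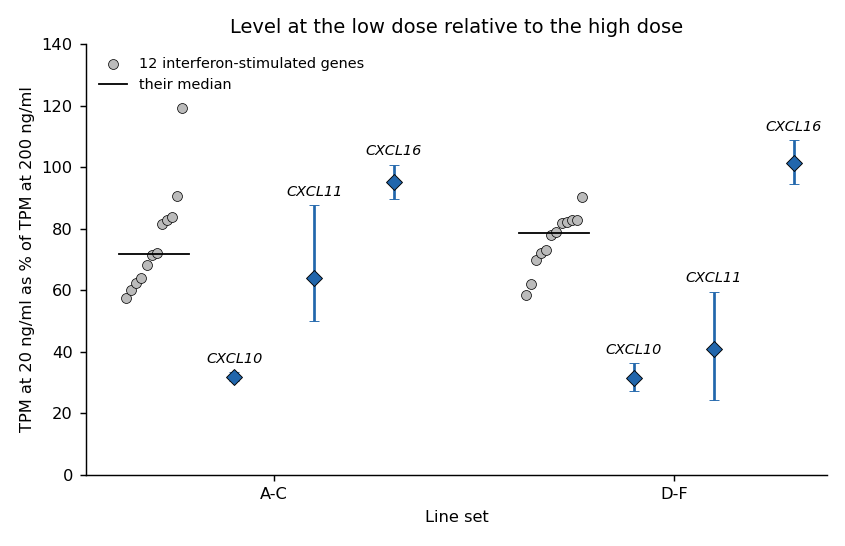
Mean TPM at 20 ng/ml as a percentage of mean TPM at 200 ng/ml, for CXCL10, CXCL11 and CXCL16 (blue diamonds) and 12 interferon-stimulated genes (grey points, with their median as a line) in line sets A-C and D-F; bars run from the lowest to the highest of the 4 possible ratios of a low-dose to a high-dose sample. CXCL10, which was chosen by its step between these doses, sits at 31.9% and 31.5%, below every grey point, and CXCL16 at 95.0% and 101%.

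The ratio of CXCL10 to CXCL11 in TPM changed with the dose in A-C. It was 0.997 and 1.26 in A, 0.673 and 0.748 in B, and 1.12 and 1.94 in C, so that CXCL11 was the higher of the pair at 20 ng/ml and CXCL10 at 200 ng/ml. In D-F the samples at 20 ng/ml disagreed, at 1.34 in E1 and 0.758 in E2, and those at 200 ng/ml were 1.20 and 1.25. With 2 samples a letter, these ratios were not tested.

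CXCL9, the third CXCR3 ligand, was nearly silent. It had 0 counts in all 4 controls, 6 and 3 counts in B, 4 and 6 in C, 0 and 8 in E, and 0 and 2 in F, and it did not exceed 0.372 TPM. It did not pass the filter on low counts and was not tested. Against 3 counts per library, the limit that a count of 0 allows, its mean was 1.62 times that limit in B and 2.24 times it in C. These ratios leave out the counting error of the treated samples, so they are not lower bounds on the change. In E the ratio was also 1.62, with 1 of the 2 samples at 0, and F was under the limit, so that no difference was detectable there at this depth. CXCL9 thus reached 0.258 ± 0.111 TPM (SD, n = 2) in C, where its neighbour CXCL10 was at 19.3 TPM.

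CCL5, also called RANTES, a chemokine of T cells and monocytes, had few counts as well. It was at 0 and 4 counts in A, 4 and 6 in B, 0 and 6 in C, 3 and 0 in D, 8 and 14 in E, and 9 and 16 in F. In D-F the treated samples did not overlap the controls, whereas in A-C C1 was at 0 and A2 at 4. The ratio to control in D-F was 9.18 at 20 ng/ml (95% counting interval 2.76 to 47.9) and 10.4 at 200 ng/ml (3.19 to 54.0). In A-C it was 2.64 (0.760 to 11.5) and 2.00 (0.475 to 9.66). CCL5 passed the filter only through treated D-F samples, and it was not called in any comparison, with a log2 fold change at 200 ng/ml of 2.14 (SE 1.02, edgeR adjusted p = 0.240) and a difference between the sets of 2.22 (95% interval -2.50 to 6.94, edgeR adjusted p = 0.646).

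CXCL16 was the most abundant of the 6 in every group, at 43.4 to 82.6 TPM. In A-C it was at 78.0 and 68.8 TPM in controls, 73.9 and 78.9 TPM at 20 ng/ml, and 82.6 and 78.3 TPM at 200 ng/ml. In D-F it was at 50.2 and 43.4 TPM in controls, 74.5 and 71.2 TPM at 20 ng/ml, and 75.5 and 68.5 TPM at 200 ng/ml. The A-C doses overlapped, while every treated D-F sample was above both D controls and the treated D-F doses overlapped each other. With 845 to 1527 counts a sample, its error was the smallest of the 5 genes tested.

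In D-F, CXCL16 was 1.50-fold above control at 20 ng/ml (log2 change 0.58, SE 0.09, edgeR adjusted p = 0.00889) and 1.47-fold at 200 ng/ml (log2 change 0.55, SE 0.09, edgeR adjusted p = 0.00853). Both passed the p threshold but not the 2-fold limit, so that neither counts as called. In A-C the values were 0.03 (95% interval -0.18 to 0.24, edgeR adjusted p = 0.970) and 0.13 (-0.08 to 0.34, edgeR adjusted p = 0.458). The difference between the sets did not pass, at 0.55 for 20 ng/ml (SE 0.13, edgeR adjusted p = 0.152) and 0.42 for 200 ng/ml (SE 0.13, edgeR adjusted p = 0.146). Untreated D was lower than untreated A by 0.81 on the log2 scale (SE 0.09, edgeR adjusted p = 9.96e-05), again under 2-fold. Treated D-F samples thus reached 68.5 to 75.5 TPM, within or just below the 68.8 to 78.0 TPM of the A controls. MED11, on the opposite strand, overlaps the end of CXCL16 and had 38 to 108 counts, and whether the counting used strand is not given in the sources used here.

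CX3CL1 separated the line sets. In A-C it was at 7.69 and 16.2 TPM in controls, 19.2 and 18.5 TPM at 20 ng/ml, and 18.4 and 13.9 TPM at 200 ng/ml. In D-F it had 0 counts in both controls, 6 and 2 counts in E and 6 and 6 in F, or at most 0.160 TPM. A2 lay inside the range of the treated A-C samples and A1 below it. The log2 fold change in A-C was 0.56 at 20 ng/ml (SE 0.34, edgeR adjusted p = 0.568) and 0.52 at 200 ng/ml (SE 0.34, edgeR adjusted p = 0.412). In D-F the mean was 1.70 times the limit of the controls in E and 2.51 times it in F. The counting error of the treated samples is left out of these ratios as well. Untreated A held 234 and 644 counts and untreated D 0 and 0. CX3CL1 passed the filter on low counts only through the A-C samples, where it is high, so the contrast of D with A is a description here. Averaged over the sets CX3CL1 was not called at 200 ng/ml (edgeR adjusted p = 0.0524), and that average rests on the zeros in D.

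The order of the 6 genes by mean TPM changed with dose. In untreated A it was CXCL16 (73.4 ± 6.51 TPM, SD, n = 2), CX3CL1 (11.9 ± 6.02), CXCL10 (1.64 ± 0.401), CXCL11 (1.45 ± 0.117), CCL5 (0.146 ± 0.206) and CXCL9 (0). In C it was CXCL16 (80.4 ± 3.03), CXCL10 (19.3 ± 0.221), CX3CL1 (16.1 ± 3.21), CXCL11 (13.6 ± 4.98), CCL5 (0.351 ± 0.496) and CXCL9 (0.258 ± 0.111). The values of CX3CL1 and CXCL11 overlapped in C, as did those of CXCL10 and CXCL11 in A and those of CCL5 and CXCL9 in both. In F the order was CXCL16 (72.0 ± 4.92), CXCL10 (13.2 ± 0.816), CXCL11 (10.8 ± 0.952), CCL5 (1.301 ± 0.549), CX3CL1 (0.154 ± 0.00281) and CXCL9 (0.0537 ± 0.0760), with no overlap between neighbours.

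The estimated counts were also split over annotated transcripts, all at the positions of GENCODE release 29. CXCL11 has 2 transcripts with different first exons, and CXCL11-202, which starts at the far end of the gene, held 26.9% of its TPM in F1, 15.9% in F2, 38.7% in E2 and 0% in E1. In A-C it held 5.97% in C1 and 0% in the other 5 samples, and the 5 counts of D2 were all assigned to it. For CX3CL1, the full-length CX3CL1-201 held 19.1% and 74.4% in A, 78.6% and 88.8% in B, and 69.9% and 59.3% in C, and A1, the sample with the lowest level in A-C, also had 27.2% in CX3CL1-203. All CX3CL1 counts in D-F were assigned to the shorter CX3CL1-204. CXCL16-201 held 89.6% to 94.9% of CXCL16 in every sample. Such splits are estimates, and those of CXCL11-202 rest on at most 16 counts a sample.

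**Figure D4:**
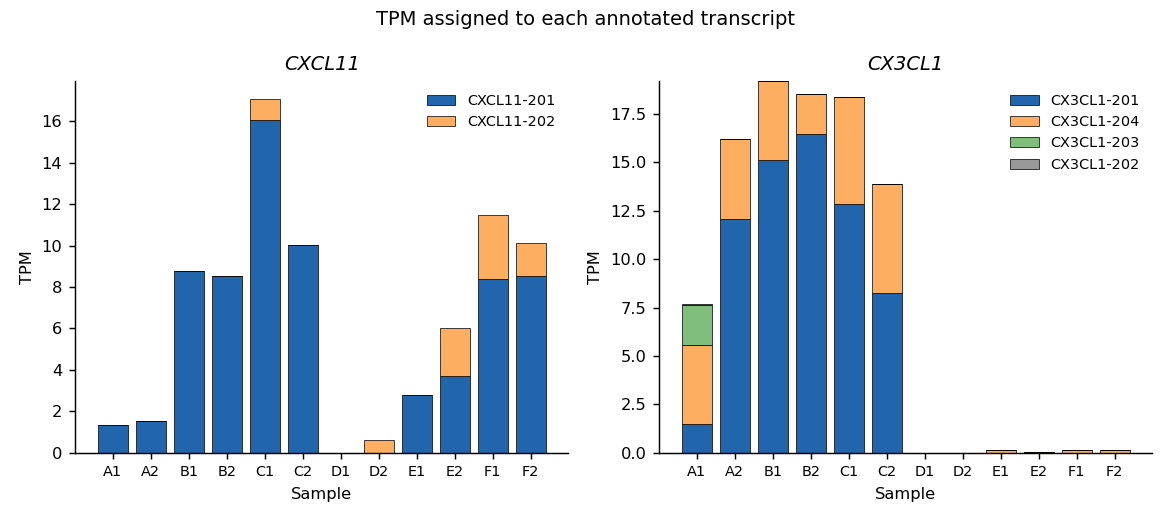
TPM assigned to each annotated transcript of CXCL11 (left) and CX3CL1 (right) in the 12 samples, as stacked bars from 0. CXCL11-202 appears in C1, D2, E2, F1 and F2, and CX3CL1 in D-F is at most 0.160 TPM, all of it CX3CL1-204.

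Over the 12 samples, the genes with the profile most like CXCL10 were IFIT2 (Pearson r = 0.983 of log2 CPM), CXCL11 (0.963), IL20RB (0.962), SP110 (0.961) and LAP3 (0.960). Those most like CXCL11 were IL7R (0.985), IFIT2 (0.971) and BATF2 (0.970). C1S (0.976) and CTSS (0.970) were among those most like CXCL16, and CCL5 was most like HLA-J (0.903), AC105749.1 (0.895) and AC116407.2 (0.890). For CX3CL1 the leading genes were CTAGE6, SLC12A7 and ARHGEF34P (0.994 each), but 2286 genes exceeded 0.9 with it. These are descriptions over samples that share line set and dose, against 87 genes above 0.9 for CXCL10 and 1 for CCL5.

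Among the receptors of these chemokines, CXCR3, CXCR6 and CX3CR1 had 0 TPM in all 12 samples. Of 8 listed receptors 4 passed the filter. Averaged over the line sets, 0 were called at 200 ng/ml by edgeR or DESeq2, with 2 at an unadjusted p under 0.05. In D-F alone 1 was called higher at 200 ng/ml, against 1.67% of all genes. CCR3, a receptor of CCL5 named after its values were seen, was called at 20 ng/ml (log2 change 2.69, SE 0.59, edgeR adjusted p = 0.0345) with DESeq2 making 0 such calls. A receptor was called at 20 ng/ml in 4 of the 12 fits that left out a sample, and 1 was called at 200 ng/ml without B1 and without B2. CCR3 lay at 0 to 0.497 TPM in controls and at most at 0.527 TPM in A-C. In treated D-F samples it was at 2.02 and 2.72 TPM in E and at 4.13 and 2.04 TPM in F. CCR1, the highest point among the receptors in the plot of pathway genes, was at 0 TPM in all 4 controls and at most 0.967 TPM after treatment.

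Of 16 interferon receptors, kinases and transcription factors that lead to these promoters, 15 were tested and 3 were called higher at 200 ng/ml, with 0 lower and a median log2 fold change of 0.22 against -0.01 over all genes. The 3 were STAT2 (1.80, SE 0.08, edgeR adjusted p = 6.80e-07), IRF9 (2.69, SE 0.13, edgeR adjusted p = 1.03e-06) and IRF7 (2.81, SE 0.16, edgeR adjusted p = 3.26e-06). STAT2 and IRF9 belong to the complex that binds the ISRE. IRF9 was at 27.1 and 31.1 TPM in A and 155 and 114 TPM in C, and at 16.8 and 10.2 TPM in D and 124 and 113 TPM in F, with every treated sample above every control. IRF1, which also binds ISRE-like sites, changed by 0.40 (SE 0.06, edgeR adjusted p = 0.00432), under 2-fold. It was at 85.5 and 89.1 TPM in A and 94.2 and 89.2 TPM in C. In D it was at 68.4 and 71.4 TPM and in F at 127 and 115 TPM. The difference between the sets was 0.51 (SE 0.13, edgeR adjusted p = 0.0764) and was not called. IRF9 was 5.70-fold above control at 20 ng/ml and 6.45-fold above it at 200 ng/ml, and the difference between the doses was 0.18 on the log2 scale (SE 0.12, edgeR adjusted p = 0.687).

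**Figure D5:**
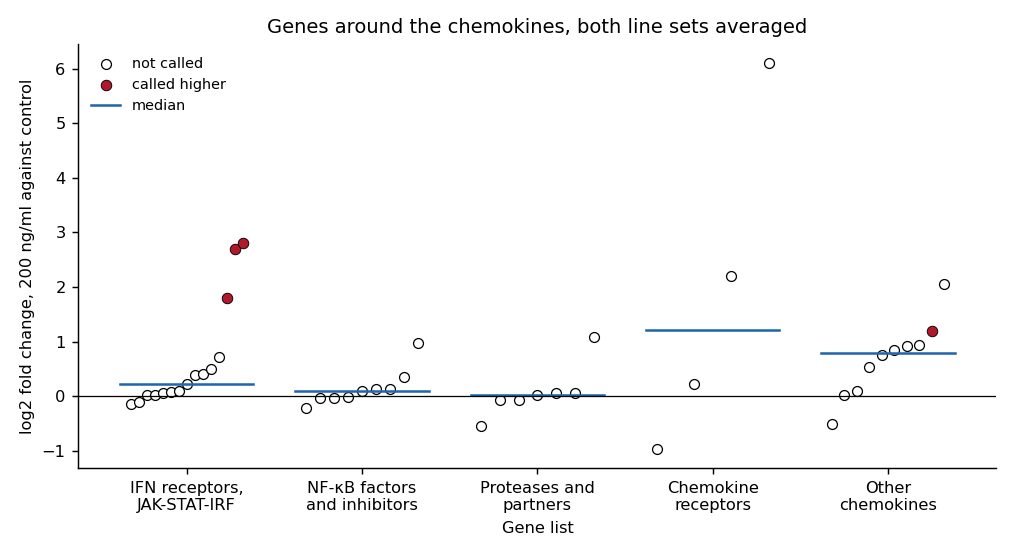
Log2 fold change at 200 ng/ml against control, averaged over the line sets, for the tested genes of 5 lists around the chemokines; filled points were called higher, open points were not, and blue lines are medians. The 3 filled points of the first list are STAT2, IRF9 and IRF7, and the filled point at 1.20 in the last list is CXCL8.

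Of 9 NF-κB factors and inhibitors 0 were called at 200 ng/ml by edgeR or DESeq2 (median log2 fold change 0.09), with 2 at an unadjusted p under 0.05. The highest was TNFAIP3, an NF-κB target that feeds back on the pathway, at 0.97 (SE 0.08, edgeR adjusted p = 6.25e-05), just under 2-fold, and 1 gene of the list was called without A2 and without D1. TNFAIP3 was named after its values were seen. In D-F alone TNFAIP3 rose by 1.72 (SE 0.12, edgeR adjusted p = 1.71e-05), from 18.0 and 13.3 TPM to 46.7 and 57.6 TPM, while its change in A-C was 0.23 (SE 0.11, edgeR adjusted p = 0.263). Of 8 proteases and partners that shed or trim chemokines 7 were tested and 0 were called by edgeR or DESeq2 (median 0.02), with 1 at an unadjusted p under 0.05. The log2 fold change of ADAM10 was 0.06 (95% interval -0.19 to 0.31, edgeR adjusted p = 0.826) and that of ADAM17 was 0.06 (-0.10 to 0.22, edgeR adjusted p = 0.656).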

How the data were processed

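RNA of 12 samples of 2 HNSCC lines was measured. The authors deposited an estimated count per gene and transcript in whole numbers, not scaled for depth, with TPM and FPKM values scaled by the authors for length and depth. FPKM was not used. The submitters' processing notes name Trimmomatic 0.36, HISAT2 2.1.0, StringTie 1.3.3b and GRCh38.p10, with no roles, and no strand setting for the counting is given in the sources used here. Reads shared by transcripts or by overlapping genes may have been divided wrongly. The 6 chemokines and the gene lists around them were chosen with earlier results of these data known. Samples were grouped by the sample titles, which give a letter and a dose class, and the doses come from the description of the design.

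Levels are TPM as deposited, with SD over 2 samples. For fold changes, edgeR 4.0.16 (R 4.3.3) was run on the deposited estimated counts with TMM scaling and filterByExpr (19944 genes left, 5 of the 6 chemokines), 1 fit of the 6 letters and quasi-likelihood tests with Benjamini-Hochberg adjustment over all genes tested. The common biological coefficient of variation was 0.196. A gene was called at a fold change of 2 or more and an adjusted p no higher than 0.05. Averaged comparisons weight both line sets equally, and a difference between line sets is the response in D-F minus that in A-C. Ratios of low counts carry 95% intervals for counting error only, and 3 counts per library stand in for groups at 0. Likeness is Pearson r of log2(CPM + 0.5). All 6 chemokines were named, with the 3 called genes of each list that moved most at 200 ng/ml, and CXCR3, CXCR6, CX3CR1, STAT2, IRF9, IRF1, ADAM10 and ADAM17 whether called or not. Some genes that these rules named are not reported here. Of the check genes this rule named OAS2, RSAD2 and IFI44L. CCR1, CCR3, TNFAIP3, TIMP3 and CXCL1 were added after their values were seen.

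Promoters came from RefSeq (GRCh38.p14) and transcript names from GENCODE 29. Alternatives were DESeq2 1.42.0, its size factors in edgeR, no filter, the study's unadjusted threshold, other sample sets, a replicate block, and limma 3.58.1 on log2(TPM + 0.1) and log2(TPM + 1). The fit was tested on simulated data. Tables and figures were made in Python 3.11.15 (matplotlib 3.10.9, numpy 2.4.6, pandas 2.3.3).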

Additional observations from a re-analysis of the deposited data

Results flagged for a closer look

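The response of CXCL10 to 200 ng/ml IFNα was larger in D-F than in A-C by 3.33 on the log2 scale (SE 0.70, edgeR adjusted p = 0.0493). It is listed because the difference between the line sets itself passed the test, although the samples at 200 ng/ml also entered the choice of CXCL10. The call was lost with no filter, with only the groups compared, with the replicate block and with limma on log2(TPM + 1). The untreated level was lower in D than in A, and the level at 200 ng/ml was also lower in F than in C, at 13.8 and 12.6 TPM against 19.1 and 19.4 TPM. The D controls behind the difference held 2 and 0 counts, and their part in it was not tested beyond leaving each of them out, which gave 6.24 without D1 and 2.41 without D2.

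For the same reason, differences between the line sets are listed for the named genes around the chemokines. At 200 ng/ml these were OAS2 (2.18), IFI44L (2.83), CXCL8 (1.76) and TNFAIP3 (1.50), and at 20 ng/ml they were OAS2 (2.49), IFI44L (2.89), CXCL8 (1.65) and TNFAIP3 (1.43). OAS2 and IFI44L are antiviral genes of the interferon response, and the response of these genes was larger in D-F. For TIMP3, an inhibitor of the shedding proteases named after its values were seen, the difference was -1.28 at 200 ng/ml (edgeR adjusted p = 0.00287). TIMP3 moved in opposite directions, with a log2 change of 0.66 in C against A and of -0.62 in F against D. Of the 12 interferon-stimulated genes, 7 were called as responding more in D-F at 200 ng/ml and 9 at 20 ng/ml, OAS2 and IFI44L included.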

How the results depend on the processing

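Of the 6 chemokines (members of the family), 2 were called higher at 200 and 2 at 20 ng/ml, against 1.58% and 0.963% of all genes. As differing between line sets 1 and 0 were called at 200 and 20 ng/ml, against 0.998% and 0.231%. Between untreated D and A 3 were called, against 26.6%, among them CX3CL1, which passed the filter only through the A-C samples. CXCL10 and CXCL11 kept their calls at both doses in every alternative except a fit on dose alone, which called 0 members at either dose. The study's unadjusted threshold called 4 members at 20 ng/ml, and 3 members and 2 members as differing between sets at 200 and 20 ng/ml. The difference at 200 ng/ml called 2 members with DESeq2 and 0 with no filter, with only the groups compared and with limma on log2(TPM + 1). Leaving out each sample gave 0 to 1 at 200 ng/ml (1 only without D1) and 0 to 1 at 20 ng/ml (1 only without D1), and 2 to 3 at each dose against control. With the replicate block the difference at 200 ng/ml called 0 members, with CXCL10 at 3.32 (adjusted p = 0.113), and the B against A calls of CXCL10 (adjusted p = 0.120) and CXCL11 (0.0982) were lost. Same-numbered samples did not deviate together (r from -0.045 to 0.056 over 6 pairs). That correlation over all genes cannot tell whether they were cultured or handled together, and the labels do not say. The cause of these changes was not tested.

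CX3CL1 differences between sets turned to -0.27 (200 ng/ml) and -0.56 (20 ng/ml) with limma on log2(TPM + 1). Averaged over the sets, CX3CL1 was called at 200 ng/ml with DESeq2, with no filter, without A1 and without A2. CCL5 untreated D against A turned to 0.92 with the block. Leave-one-out ranges that crossed 0 were, for CCL5, -0.36 to 4.10 at 200 ng/ml, -3.97 to 4.95 for C against A, -1.70 to 7.22 and -2.22 to 5.12 for the difference at 200 and 20 ng/ml, and -3.91 to 3.46 for untreated D against A, and for CXCL16, -0.019 to 0.076 for B against A. ADAM10 was -0.13 at 200 ng/ml and -0.20 at 20 ng/ml with limma at either pseudocount, and ranged from -0.10 to 0.18 at 200 ng/ml when samples were left out, as did ADAM17 from -0.0050 to 0.12 at 20 ng/ml. Over the tested members, 555 alternatives of single values kept the direction and call, 33 lost the call, 21 gained one and 11 reversed. Few counts of CXCL9, CCL5 and the D controls limit what can be detected.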

Other observations

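Among 37 other chemokines 10 passed the filter, and 1 was called higher at 200 ng/ml (median log2 fold change 0.79 against -0.01 over all genes), with 0 lower. It was CXCL8, which draws neutrophils, with a change of 1.20 (SE 0.10, edgeR adjusted p = 6.57e-05), and the count was 3 without D1 and 2 without D2. In A-C, CXCL8 was at 171 and 192 TPM in controls, 173 and 193 TPM at 20 ng/ml, and 199 and 245 TPM at 200 ng/ml. In D-F it was at 26.2 and 23.1 TPM, 71.2 and 84.9 TPM, and 99.8 and 114 TPM. The low dose overlapped the controls in A-C, while in D-F each dose lay above the one before. The log2 fold change at 200 ng/ml was 0.32 in A-C (SE 0.13, edgeR adjusted p = 0.198) and 2.08 in D-F (SE 0.14, edgeR adjusted p = 2.12e-05). Before treatment, CXCL8 was lower in D-F than in A-C by 3.08 on the log2 scale (SE 0.15, edgeR adjusted p = 4.59e-07), and CXCL10 was also lower. Of the 10 tested genes of the list 6 were called lower there, against 11% of all genes, with a lowest log2 change of -13.5. Genes of the list that passed the filter only through the A-C samples were not set apart. Such genes could hardly be called other than lower, so the count is no result about the list. CXCL1, its close relative, named after its values were seen, was called in D-F (1.33, SE 0.13, edgeR adjusted p = 0.000254) and stood at 378 and 344 TPM in the A-C controls and 97.6 and 84.0 TPM in the D-F controls.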
